A study of Homo sapiens with 6 samples.

Results

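The peaks described here are sites where EHF was found inside acetylated chromatin with no H3K4me1 region close by. They were selected on the called intervals of 3 libraries. A peak of EHF replicate 2 had to overlap an H3K27ac region, and no H3K4me1 region could overlap it or lie within 2000 bp of its centre. Peaks in a stretch of chromosome 17, from 37500001 to 39000000 (hg19), were left out. Of the 5216 peaks of replicate 2, 44 lay in that stretch, and 11 of these met the rest of the definition. The definition held for 1604 of the remaining 5172 peaks. They are called H3K4me1-distant EHF peaks below. The other peaks outside the stretch divide into 1414 in H3K27ac with H3K4me1 beside them but not on them (flanked), 291 covered by both marks, 125 in H3K4me1 alone and 1738 outside both marks.

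EHF belongs to the ETS transcription factors and is made mainly in epithelia. ETS proteins bind DNA at sites with a GGAA core. H3K27ac, acetylation of lysine 27 on histone H3, marks active promoters and active enhancers. H3K4me1, monomethylation of lysine 4 on the same histone, is typical of enhancers and of the shoulders of promoters. It is usually low at the centre of an active promoter, where the trimethylated form prevails. Trimethylation was not analysed here, so promoters and enhancers cannot be told apart in these lists.

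The study mapped EHF and both marks in Calu-3, an established airway epithelial line from a human lung adenocarcinoma, grown in DMEM with 10% serum. None of the libraries is labelled with a treatment. EHF was precipitated in 2 replicate libraries with the same antibody clone, and each mark has 1 library. The EHF libraries were called against the first input and the mark libraries against the second. The EHF libraries hold 8418631 tags (replicate 2) and 10176290 tags (replicate 1), of which 0.740% and 0.155% fall inside called intervals. The H3K4me1 library has 12989646 tags with 5.80% in its regions, and the H3K27ac library 21426939 with 28.9%. A site absent from a list had no call there, which does not show that the protein or mark was missing. The tests below compare classes of positions in these libraries and do not measure the spread between cultures.

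The distance to H3K4me1 varied widely among these peaks. The nearest H3K4me1 region lay a median of 12338 bp from the peak centre, with quartiles of 4295 and 37960 bp. Between 2 and 5 kb were 463 peaks (28.9%), and 265 more (16.5%) were within 10 kb. At the other end, 155 peaks (9.66%) had no H3K4me1 region within 100 kb. The acetylated regions around them were widest near H3K4me1. Their median width was 3026 bp for peaks at 2 to 5 kb, 2374 bp at 5 to 10 kb and 1893 bp at 10 to 20 kb, and between 1571 and 1625 bp in the 3 classes farther away. The median H3K27ac score per kb was lower in each farther class, from 53.2 at 2 to 5 kb to 32.5 beyond 100 kb. The score is the authors' normalized tag count of an interval. The median EHF score was 12 in each of the 6 distance classes.

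**Figure D1:**
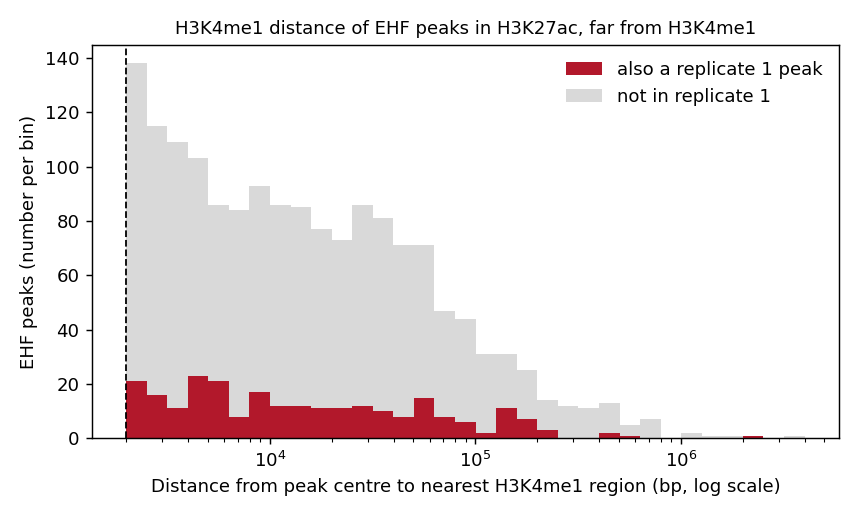
Number of H3K4me1-distant EHF peaks by distance from the peak centre to the nearest H3K4me1 region (bp, log scale). The bars are stacked, with the peaks that overlap a replicate 1 peak in red and the others in grey, and the dashed line is the 2000 bp limit. Counts are highest near the limit, and 155 peaks lie beyond 100 kb.

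The limit itself separates no gap in the data. The 5 peaks just inside it had their nearest H3K4me1 region 2002 to 2005 bp away and EHF scores of 8 to 13. The 5 flanked peaks just on the other side were at 1989 to 1999 bp with scores of 10 to 14. One of the inner peaks, at 133772703 to 133772827 on chromosome 5, scored 13 in replicate 2 and 9 in replicate 1. None of the other 9 peaks had a replicate 1 peak.

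Acetylation around the peaks fell off within 1 to 2 kb. High coverage at the centre is set by the definition, which requires overlap with an H3K27ac region. Called H3K27ac regions covered 95.95% of the peak centres. At 1 kb they covered 46.95% of the points to the left (lower coordinates) and 48.5% to the right. At 2 kb the shares were 21.01% and 21.5%. The flanked peaks had broader acetylation, with 65.4% and 63.4% at 1 kb and 31.97% and 32.3% at 2 kb. H3K4me1 around the distant peaks is 0% up to the limit by definition. At 3 kb it covered 3.99% and 4.93% of the points, against 8.35% and 9.19% around the flanked peaks. These curves describe the lists used in the choice and were not tested.

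**Figure D2:**
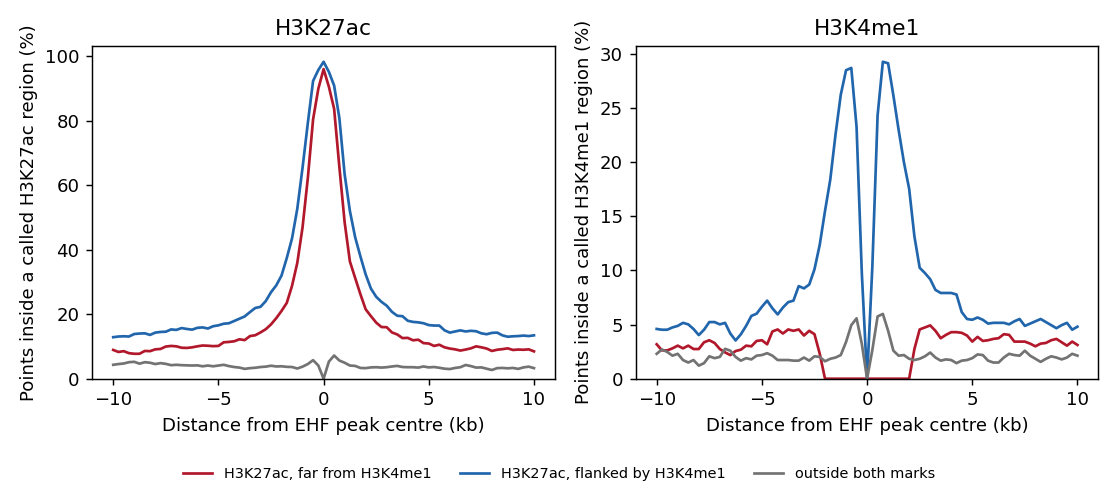
Share of points inside a called H3K27ac region (left) or H3K4me1 region (right) at each distance in kb from the EHF peak centre, for H3K4me1-distant peaks (red), flanked peaks (blue) and peaks outside both marks (grey). The red H3K27ac curve is narrower than the blue one, and the red H3K4me1 curve is at 0% up to 2 kb by definition.

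The 1604 peaks lay in 1520 separate H3K27ac regions. These regions had a median width of 1974 bp (quartiles 1297 and 3323 bp) and a median score of 43.9 per kb (31.3 and 60.4). A suitable set to read them against is the 17765 H3K27ac regions with no EHF peak of either replicate whose centre also lay more than 2000 bp from H3K4me1. Their median width was 1130 bp (628 and 1929 bp) and their median score 25.4 per kb (19.7 and 35.7). Regions of a single 500 bp calling window made up 4.14% of the EHF-holding regions and 23.9% of the others. The quartile ranges of width and of score overlap. A wide region has more room for a peak, and an EHF peak was found in 1.45% of the H3K27ac regions with a distant centre in the narrowest of 5 width classes (95% interval 1.12% to 1.85%). In the widest class it was 17.6% (16.2% to 19.05%). Per base the order was different. From narrow to wide the classes held 28.8, 58.1, 60.6, 51.7 and 42.8 EHF peaks of replicate 2 per Mb, so that the middle class was the densest. Among H3K27ac regions with H3K4me1 within 2000 bp of their centre the densities were 27.3, 53.3, 72.5, 57.9 and 49.9 per Mb, also highest in the middle class.

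Of the 1520 H3K27ac regions that held an H3K4me1-distant EHF peak, 1382 had no H3K4me1 anywhere in them. The definition largely sets this, since most of the regions are narrower than the span that it keeps free of H3K4me1. The other 138 (9.08%) overlapped an H3K4me1 region farther along and were wide, with a median of 7222 bp against 1828 bp. H3K4me1 overlapped 1.14% of the narrower regions without EHF whose centre was distant, and 34.5% of all H3K27ac regions outside the stretch. By peaks, 1448 (90.3%) lay in regions free of H3K4me1 and 156 (9.73%) in regions with the mark elsewhere. Both groups had a median EHF score of 12. They recurred in replicate 1 at 15.5% (95% interval 13.7% to 17.5%) and 15.4% (10.1% to 22.0%), and these intervals overlap almost entirely.

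Within their H3K27ac regions the EHF peaks lay more often near the middle than near an end. The centre of 1539 peaks was inside the region, and 65 peaks touched it with their edge alone. Of the 1539, 530 (34.4%) were in the central 20% of the region. The outer zones, 20% of the region at each end, held 337 (21.9%) together, although they span more of the region than the central zone. The median distance to the nearer edge was 725 bp. Among the flanked peaks 37.6% were in the central 20% and 13.8% in the outer zones. This comparison is a description, because the edges of H3K27ac regions were used in the choice.

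The EHF signal at most of these peaks was low. The caller's threshold in replicate 2 was 7 tags. Scores are scaled to 10000000 tags from 8418631, so score and threshold may not share a unit. Scores of 6 to 10 were held by 462 of the 1604 peaks. Scores in replicate 2 ran from 6 to 64, with a median of 12 and quartiles of 10 and 15. The median was 13 (quartiles 11 and 17) at flanked peaks, 12 (11 and 15) at peaks covered by both marks and 11 (10 and 13) at peaks outside both. Scores of 24 or more were held by 100 H3K4me1-distant peaks (6.23%), against 10.6% of flanked peaks, 6.87% of peaks in both marks and 3.34% of peaks outside both. These scores come from the list that supplied the peaks and were not tested.

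EHF replicate 1 was not used in the choice. It was called against the same input as replicate 2, and the labels do not say whether the libraries came from separate cultures. A replicate 1 peak overlapped 249 of the 1604 peaks, or 15.5% (95% interval 13.8% to 17.4%). Over all 5172 replicate 2 peaks outside the stretch the share was 14.8%. The H3K4me1-distant peaks were thus near the average of the list. They recurred less often than the flanked peaks, of which 288 (20.4%, 18.3% to 22.6%) were found, a difference of -4.84 percentage points (Fisher's exact test, adjusted p = 0.00088 over 3 tests). They recurred more often than the peaks outside both marks, at 165 of 1738 (9.49%, 8.16% to 10.97%), a difference of 6.03 points (Fisher's exact test, adjusted p = 4e-07). Against the 291 peaks in both marks, of which 54 (18.6%, 14.3% to 23.5%) were found, the difference of -3.03 points did not pass (Fisher's exact test, adjusted p = 0.19).

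Recurrence rose with the score, and the classes differed in score. Of the H3K4me1-distant peaks with scores of 6 to 10, 6.93% recurred (95% interval 4.79% to 9.64%). The share was 11.7% at 11 to 14, 24.2% at 15 to 23 and 53.0% (42.8% to 63.1%) at 24 or more. Over all replicate 2 peaks outside the stretch the shares in these score classes were 5.24%, 11.5%, 24.2% and 55.6%. The rise with score was thus general to the list. Within these 4 classes the difference from flanked peaks was -0.74, -1.48, -4.59 and -7.00 points, and none passed Fisher's exact test (adjusted p = 0.5 to 0.87 over 12 tests). Combined over the score classes by the Mantel-Haenszel method, an analysis added after the data were seen, the difference from flanked peaks was -2.41 points (n = 1604 and 1414 peaks, adjusted p = 0.11). The odds ratio of 0.828 had a 95% interval of 0.678 to 1.01. The difference from peaks outside both marks was 3.68 points in the same analysis and passed (n = 1604 and 1738 peaks, adjusted p = 0.0029, odds ratio 1.45, 95% interval 1.17 to 1.81). Within the score classes this difference was 3.91, 2.26, 4.95 and 9.90 points, and it passed Fisher's exact test only at scores of 6 to 10 (adjusted p = 0.029 over 12 tests). The difference from peaks in both marks was largest at scores of 24 or more, at -27.0 points, with 16 of 20 of those peaks recurring (Fisher's exact test, adjusted p = 0.17). So the lower recurrence relative to flanked peaks was seen over all scores together and did not pass at like scores.

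**Figure D3:**
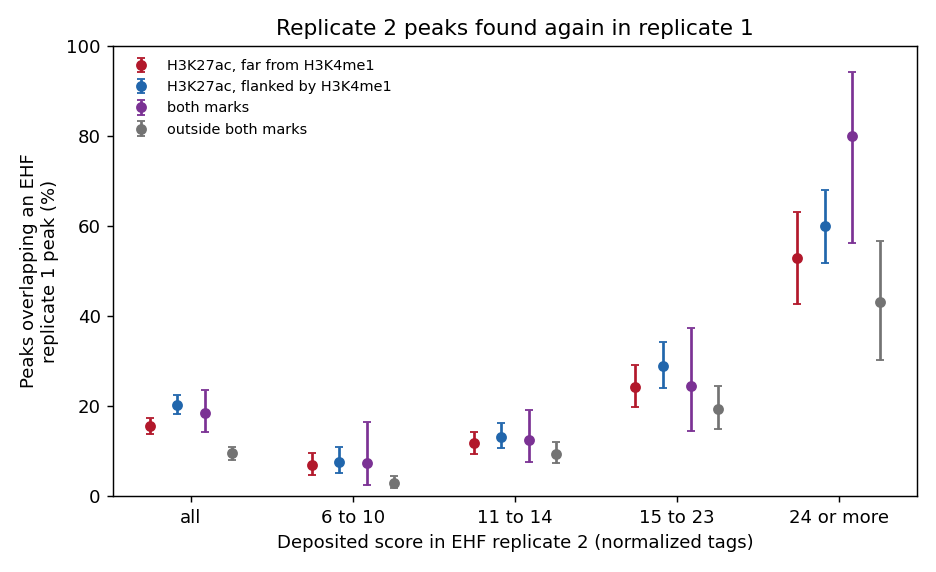
Share of EHF replicate 2 peaks that overlap a replicate 1 peak, over all scores and in 4 classes of the deposited replicate 2 score, for peaks in H3K27ac far from H3K4me1 (red), flanked peaks (blue), peaks in both marks (purple) and peaks outside both (grey). Bars are exact 95% binomial intervals; the red points rise from 6.93% to 53.0% with the score, and within each class the red and blue intervals overlap.

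Among the H3K4me1-distant peaks themselves, none of 3 chromatin measures gave a difference in recurrence that passed. Each measure was divided at its median, a comparison added after the data were seen. Of the 802 peaks more than 12338 bp from H3K4me1, 15.2% recurred (95% interval 12.8% to 17.9%), against 15.8% (13.4% to 18.6%) of the 802 nearer ones. By width of the H3K27ac region the shares were 16.2% in the wider and 14.8% in the narrower part. By H3K27ac score per kb they were 16.1% in the stronger and 14.96% in the weaker part. None of the 3 differences passed Fisher's exact test (adjusted p = 0.78 for each). The intervals allow differences of a few percentage points in either direction.

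Pairs of peaks were matched by overlap, which for such short peaks limits how far apart their centres can be. Within that limit the 249 pairs of centres lay a median of 22 bp apart (quartiles 10 and 40 bp, at most 127 bp), and 137 (55.02%) were within 25 bp. The scores had a median of 15 in replicate 2 (7 to 43) and 10 in replicate 1 (7 to 29). In replicate 1, 63 of the 249 scored 8 or less, close to the caller's threshold of 8 tags. Across these sites the score of replicate 1 followed that of replicate 2 loosely (Spearman rho 0.36, Pearson r 0.43). At the 288 flanked sites rho was 0.58 and r was 0.66. Sites share the library and input, and flanked sites reach higher scores (up to 76 in replicate 2), so these coefficients are given as a description.

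**Figure D4:**
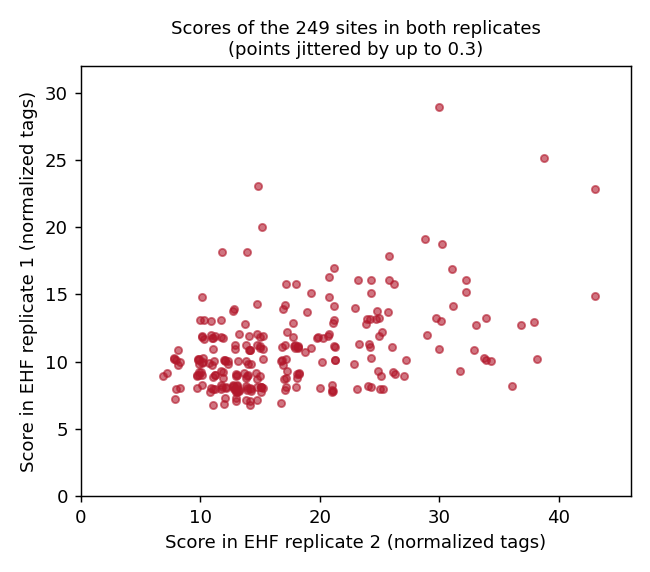
Deposited scores of the 249 H3K4me1-distant EHF sites with a peak in both replicates, replicate 2 on the horizontal and replicate 1 on the vertical axis (normalized tags). Each point is 1 site, jittered by up to 0.3; replicate 1 scores run from 7 to 29, and most points sit at low values on both axes.

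The 12 sites with the best mean rank in both replicates lay on 11 chromosomes. Replicate 2 scored them from 26 to 43, and replicate 1 from 15 to 29. Their paired centres were 1 to 37 bp apart. In 11 of the 12 the H3K27ac region contained no H3K4me1, and 6 were more than 10 kb from the nearest one. The site at 15684807 to 15684931 on chromosome 16 shared the first place. It scored 43 and 23 in replicates 2 and 1. Acetylation around it spans 3614 bp, and H3K4me1 was 18412 bp away. Equal in rank was 30292565 to 30292689 on chromosome 20, with scores of 39 and 25. It is the exception to the absence of H3K4me1, since its acetylated region of 33422 bp also holds H3K4me1, the nearest of it 3708 bp away.

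The remaining leading sites show how varied the acetylated setting was. On chromosome 15, the peak at 80729157 to 80729281 had nearly equal scores of 30 and 29, with acetylation over 1948 bp. On chromosome 5, the peak at 167751995 to 167752119 scored 43 but only 15 in replicate 1, with acetylation over 2910 bp. A further peak on chromosome 15, at 64679778 to 64679902, scored 31 and 17. Its H3K27ac region was a single calling window with a score of 19, and H3K4me1 was 78587 bp away. The most isolated of the 12, on chromosome 17 at 50383887 to 50384011, scored 32 and 16 and had its nearest H3K4me1 region 155992 bp away. The strongest acetylation per kb outside the chromosome 20 region was at 30027661 to 30027785 on chromosome 7, where a region of 3158 bp scored 112 per kb and the EHF scores were 32 and 15. Acetylation was weaker, at 25.6 per kb, around the chromosome 19 peak at 50693952 to 50694076, which scored 30 and 19. The other 4, on chromosomes 8, 12, 18 and 22, scored 26 to 29 and 16 to 19.

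Some of the highest replicate 2 scores had no counterpart in replicate 1. The 5 highest-scoring peaks without a replicate 1 peak scored 34 to 64, and the first 3 were on chromosome 17 below the stretch left out. The peak at 37356226 to 37356350 scored 64 and ended 0.144 Mb from the stretch. The peak at 34957949 to 34958073 scored 56 and lay 2.54 Mb from it. The peak at 35849095 to 35849219 scored 39 and lay 1.65 Mb from it. Their H3K27ac regions scored 323, 94.5 and 138 per kb, against a median of 45.1 over all H3K4me1-distant peaks, so that both libraries were high there. The remaining 2 were at 38948716 to 38948840 on chromosome 7, with a score of 39, and at 16168517 to 16168641 on chromosome 16, with a score of 34. Their H3K27ac regions scored 61.4 and 24.3 per kb.

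Chromosome 17 was then set apart, a step taken after these values were seen. Of its 12 H3K4me1-distant peaks with scores of 24 or more, 3 recurred (25%, 95% interval 5.49% to 57.2%), and 8 of the 12 lay between 30 Mb and the stretch left out. On the other chromosomes 50 of 88 recurred (56.8%, 45.8% to 67.3%). Over all scores the part of chromosome 17 from 30 Mb to the stretch held 13 H3K4me1-distant peaks, of which 1 recurred. Their median EHF score was 26 and their median H3K27ac score 142 per kb. The high H3K27ac scores there stood beside the high EHF scores, and their part in the low recurrence was not tested. Without chromosome 17, 15.9% of the peaks recurred.

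Most of these H3K27ac regions held only 1 H3K4me1-distant peak. EHF peaks of other classes in the same regions are left out of the counts, and no such counts are given for those classes. Of the 1520 H3K27ac regions, 1442 held 1 such peak, 72 held 2 and 6 held 3. The nearest other peak of the class was within 2 kb for 133 peaks (8.29%) and within 100 kb for 536 (33.4%). The 5 widest regions with 3 peaks were a mixed group. The widest, at 145008077 to 145028615 on chromosome 8, spans 20539 bp and also holds 2 H3K4me1 regions and 1 further EHF peak. Its 3 peaks scored 11 to 15, and the nearest H3K4me1 region was 2067 bp from one of them. The region at 52746011 to 52758760 on chromosome 20 (12750 bp) also holds 2 H3K4me1 regions, and its peaks scored 12 to 33, with 1 of the 3 in replicate 1. The region at 156845077 to 156850808 on chromosome 3 is free of H3K4me1, and its 3 peaks within 1831 bp scored 13 to 24. The region at 25084024 to 25087599 on chromosome 13 is the most isolated, with no H3K4me1 within 169644 bp, and its peaks scored 8 to 18. The region at 56165166 to 56168049 on chromosome 19 packs 3 peaks with scores of 10 to 15 into 2884 bp, and 1 of them recurred. In the chromosome 8, 3 and 13 regions none of the peaks had a replicate 1 peak.

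The share of acetylated EHF peaks that were far from H3K4me1 differed between chromosomes. Over the genome outside the stretch it was 1604 of 3309, or 48.5% (95% interval 46.8% to 50.2%). It was highest on chromosome X, at 32 of 43 (74.4%, 58.8% to 86.5%), and on chromosome 19, at 92 of 139 (66.2%, 57.7% to 74.0%). It was lowest on chromosome 8, at 55 of 165 (33.3%, 26.2% to 41.1%), and on chromosome 5, at 80 of 226 (35.4%, 29.2% to 42.0%). Distance from H3K4me1 is part of the definition, and these 4 chromosomes are named for their values, so the shares are a description with no test.

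The centres of all H3K27ac regions, with or without EHF, varied in a like order. Of these centres 55.96% were far from H3K4me1 over the genome, 79.7% on chromosome X, 72.5% on chromosome 19, 50% on chromosome 8 and 43.0% on chromosome 5. Over the 23 chromosomes the share among EHF peaks and the share among region centres rose together (Spearman rho 0.85, Pearson r 0.86). They share the same mark lists, so this is a description. The EHF share was the lower one on 21 of the 23, all but chromosomes 2 and 22. The gap was widest on chromosome 13, where 12 of 20 EHF peaks were far against 84.6% of region centres, and next widest on chromosome 8. EHF peaks and region centres were not matched for region width, and EHF peaks were found more often in wide regions. Of the narrowest 5th of regions, 4413 had a far centre and 2620 a near one, and of the widest 5th 2912 and 4006. The part of width in the lower EHF share was not tested. The number of H3K4me1 regions per 100 H3K27ac regions also differed. It was 37.4 on chromosome X, 50.1 on chromosome 19, 104 on chromosome 8 and 131 on chromosome 5, while the lowest of all was 28.9 on chromosome 13. Relative to acetylation the H3K4me1-distant peaks were most frequent on chromosomes 20 and 19, with 8.10 and 8.07 per 100 H3K27ac regions. They were least frequent on chromosome 13, with 1.71, and the value over the genome was 4.635. EHF peaks of any class in H3K27ac also varied in number. Chromosome 20 had 149 for 815 H3K27ac regions, chromosome 19 had 139 for 1140 and chromosome 13 had 20 for 700. Over the genome there were 3309 for 34604 regions. On chromosome 20 the distant share of these peaks was 44.3%, below the 48.5% of the genome, so this ranking is not particular to the H3K4me1-distant peaks.

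**Figure D5:**
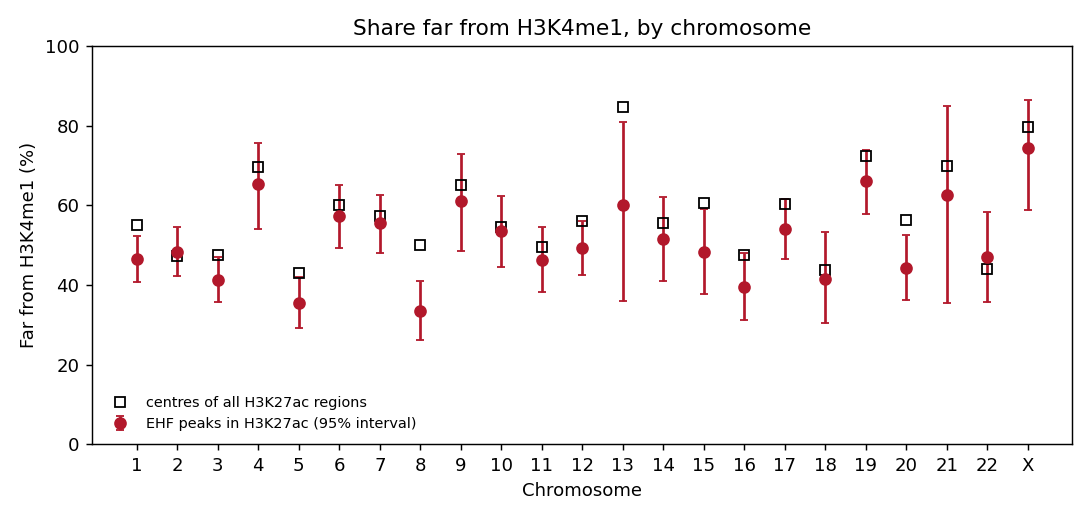
Share far from H3K4me1 on each chromosome, for EHF replicate 2 peaks in H3K27ac (red, with exact 95% binomial intervals) and for the centres of all H3K27ac regions (open squares). Both are high on chromosomes 19 and X, and on chromosome 8 the EHF share of 33.3% is below the 50% of the region centres.

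The same definition was applied to the peaks of replicate 1 to see what the choice of library changes. Of its 1536 peaks outside the stretch 935 lay in H3K27ac, and 388 of these (41.5%) were far from H3K4me1. A replicate 2 peak overlapped 253 of the 388, or 65.2% (95% interval 60.2% to 69.9%), and 249 of the 388 overlapped an H3K4me1-distant peak of replicate 2. Replicate 1 is the shorter list, and over all classes 768 of the 5172 replicate 2 peaks overlapped a replicate 1 peak. Shares of replicate 1 peaks therefore run higher for the list as a whole. The 65.2% was near the share of flanked peaks, and above those of peaks in both marks and outside both. With the libraries exchanged in this way, the difference from flanked peaks was -0.46 points and did not pass (Fisher's exact test, adjusted p = 0.94). The difference from peaks in both marks turned to 12.99 points and passed (Fisher's exact test, adjusted p = 0.023). That from peaks outside both marks was 36.8 points, in the same direction as before.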

How the data were processed

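Binding of EHF and 2 histone marks was measured by ChIP-seq in Calu-3 cells. The submitters' processing notes name Bowtie 1.0.0, HOMER 1.2 and the build hg19. Per the file headers, HOMER findPeaks was run on every library by itself, with a false discovery rate of 0.01 and at least 4-fold signal over the input. The deposited score of an interval is its normalized tag count, scaled by the authors to 10000000 tags and given as whole numbers. It has no error of its own.

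The joins and tests used scipy 1.17.1, pandas 2.3.3 and numpy 2.4.6 under Python 3.11.15. Overlap meant 1 bp or more. Distances ran from the peak centre to the nearest H3K4me1 base. Shares have exact Clopper-Pearson 95% intervals, which cover counting error only. Shares of peaks recurring in replicate 1 were compared by two-sided Fisher's exact tests with Benjamini-Hochberg adjustment. The overlap and test code was tested on simulated data. Scores, widths and distances come from the lists used in the choice and carry no test.

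Members and lists were chosen with earlier results of these data known. The sites named are the 12 recurring peaks whose score ranks, averaged over both EHF lists, were best and the 5 highest-scoring peaks without replicate 1. The 5 H3K27ac regions with the most members and the 5 peaks on either side of the distance limit are also named. Gene names, start sites, motifs and sequence need hg19 references and were not analysed here.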

Additional observations from a re-analysis of the deposited data

How the results depend on the processing

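Of 132 alternative values, 103 kept their side of the threshold or stayed within the interval or, for counts, within 1.5 times of the reported value, and 2 changed sign. The number of H3K4me1-distant peaks was 1141 to 1996 with limits of 5000 and 1000 bp. The difference from flanked peaks was -6.09 to -3.53 points where it passed. It did not pass at -2.10 points with scores of 12 to 23 (Fisher's exact test, adjusted p = 0.45) or at -2.41 by the Mantel-Haenszel method. The difference from peaks outside both marks kept its direction in the 12 alternatives run and did not pass at 3.02 points with scores of 12 to 23 (adjusted p = 0.37, Fisher's exact test). That from peaks in both marks turned to 2.27 points at those scores. Without replicate 2, the definition applied to replicate 1 gave 388 peaks, 65.2% of them recurring in replicate 2. This share is of the shorter list and cannot be set against that of the main choice. The differences were then -0.46 points from flanked peaks (adjusted p = 0.94), 12.99 from peaks in both marks (adjusted p = 0.023) and 36.8 from peaks outside both (Fisher's exact tests). The cause was not tested. Alternatives chosen after seeing the data were the Mantel-Haenszel method, leaving out chromosome 17 and H3K4me1 scores of at least 12, which gave 1813 peaks. Those needing start sites or sequence were not run. Of the H3K4me1-distant peaks with scores of 6 to 10, 6.93% had a replicate 1 peak, against 5.24% of all peaks with such scores. Replicate 1 held more tags than replicate 2 (10176290 against 8418631), with a smaller share of them in called intervals (0.155% against 0.740%). Why the other peaks had no replicate 1 peak was not tested. No paired analysis was possible because replicate numbers are given for EHF alone.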
